A study of Homo sapiens with 4 samples.

Results

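The WNT ligands described here are 10 of the 17894 genes measured by RNA-SEQ in human embryonic stem cells (hESCs) after 2 days of hematopoietic differentiation, namely WNT2B, WNT3, WNT3A, WNT4, WNT5A, WNT5B, WNT6, WNT8A, WNT10B and WNT11. They were chosen by name, as the rows of the expression tables carrying these symbols, and the values of the remaining 9 of the 19 human WNT ligand genes are given only for scale. WNT proteins are lipid-modified secreted glycoproteins that bind Frizzled receptors. With the co-receptors LRP5 and LRP6 they stabilize β-catenin, which then activates TCF/LEF target genes, and with ROR receptors they act on cell polarity and calcium instead. In the early embryo, WNT3 is required for the primitive streak to form, and R-spondins raise WNT responses by binding LGR receptors and keeping the ligases ZNRF3 and RNF43 from removing Frizzleds.

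The cells were of the H1 line of hESCs, grown on a mouse stromal layer (mAGM-S3) and collected at day 2 by sorting for TRA-1-85, an antigen of human cells. The 4 libraries were 1 wild-type control, 1 wild-type culture given R-spondin2 at 20 ng/mL over 1 day, and 1 library from each of 2 untreated LGR4-/- clones. Each knockout line was a single clone, so a difference between clones holds both clonal and library variation, and R-spondin2 and control had no replicate. Values were in FPKM, the authors' fragment count scaled to transcript length and sequencing depth, a level per length that can be set side by side between genes. Differences are on the scale of log2(FPKM + 1), which understates the change of low genes.

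The depth implied by the low FPKM values was 8680000 to 8930000 reads per library, and the highest estimate was 1.03 times the lowest. LGR4, the receptor gene targeted in the clones, was at 21.8 FPKM in control, 24.3 with R-spondin2, 7.40 in clone 1 and 13.9 in clone 2 (log2 difference of the clones from the wild-type libraries -1.10, SE 0.25, limma adjusted p = 0.0327), so its RNA was lower in the libraries labelled LGR4-/- but still present. BSG, which encodes the protein carrying the sorted antigen, was at 393 to 483 FPKM. In bulk RNA of this kind, fewer cells of a type and less RNA per cell cannot be told apart.

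The highest WNT RNA levels were those of 5 ligands. WNT5A, the best known ligand of the ROR receptors, was at 31.5 FPKM in control and 42.5 with R-spondin2, and at 6.12 and 11.3 in clones 1 and 2. It was the highest ligand of both wild-type libraries and the third in both clones, and the wild-type values did not overlap with those of the clones. WNT3, the primitive streak ligand, was at 21.2 FPKM in control, 25.6 with R-spondin2, 10.9 in clone 1 and 16.7 in clone 2, second in the wild-type libraries and first in the clones. WNT5B, a close paralog of WNT5A, was at 16.9, 14.4, 8.53 and 14.9 FPKM in the same order of libraries, and here clone 2 lay between R-spondin2 and control. WNT8A, a β-catenin ligand of the early embryo, was at 11.2 FPKM in control, 7.89 with R-spondin2, 3.45 in clone 1 and 4.03 in clone 2. WNT3A, the β-catenin ligand needed for posterior mesoderm, was at 6.43, 5.0, 3.57 and 5.39 FPKM, and the value of clone 2 again lay between both wild-type values.

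The other 5 ligands were low. WNT4, known from kidney and gonad development, was at 2.08 FPKM in control, 2.19 with R-spondin2, 0.51 in clone 1 and 1.02 in clone 2. WNT10B, a β-catenin ligand, was at 1.32 FPKM in control and clone 1, 1.48 in clone 2 and only 0.34 with R-spondin2. WNT11, a polarity ligand of gastrulation, was at 0.70, 1.49, 0.29 and 0.35 FPKM. WNT2B was at 0.18 to 0.39 FPKM and WNT6 at 0.07 FPKM in every library but R-spondin2, where it was at 0.41. WNT2B, WNT6 and WNT11 had a mean under 1 FPKM over the 4 libraries and were left out of the tests, so that 7 of the 10 members were among the 12697 genes tested.

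**Figure D1:**
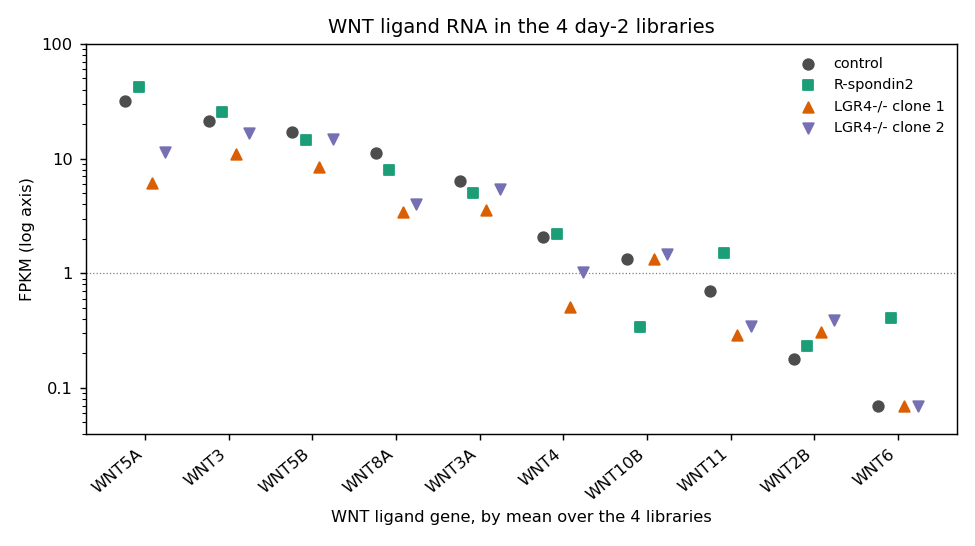
FPKM of each WNT ligand gene (log axis) in the control, R-spondin2, LGR4-/- clone 1 and LGR4-/- clone 2 libraries, 1 point per library, with a dotted line at 1 FPKM. WNT5A ran from 6.12 to 42.5 FPKM with both clones lowest, whereas the R-spondin2 library alone was low for WNT10B (0.34 FPKM).

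The summed FPKM of the 10 ligands was 91.6 in control and 100.1 with R-spondin2 (109% of control), but 35.1 in clone 1 (38.3%) and 55.6 in clone 2 (60.8%). WNT5A held 34.4% of this sum in control and 42.5% with R-spondin2, and 17.4% and 20.4% in the clones. WNT3 took 23.1% and 25.6% in the wild-type libraries and 31.1% and 30.0% in the clones. The 6 ligands best known for β-catenin signaling (WNT2B, WNT3, WNT3A, WNT6, WNT8A and WNT10B) summed to 40.3 FPKM in control, 39.5 with R-spondin2, 19.6 in clone 1 and 28.0 in clone 2. The 4 ligands better known for other routes (WNT4, WNT5A, WNT5B and WNT11) summed to 51.2, 60.6, 15.4 and 27.6 FPKM. The first group was thus at 48.7% and 69.6% of control in clones 1 and 2, and the second at 30.2% and 53.8%. The difference between the groups was not tested. The lower percentages of the second sum came mainly from WNT5A, which made up 31.5 of the 51.2 FPKM in control. WNT5A was at 19.4% and 35.9% of control in clones 1 and 2. WNT5B, next in level, was at 50.4% and 87.9%, above the percentages of the first group. WNT4 and WNT11 lay below those percentages, but at no more than 2.19 FPKM in any library they weighed little.

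**Figure D2:**
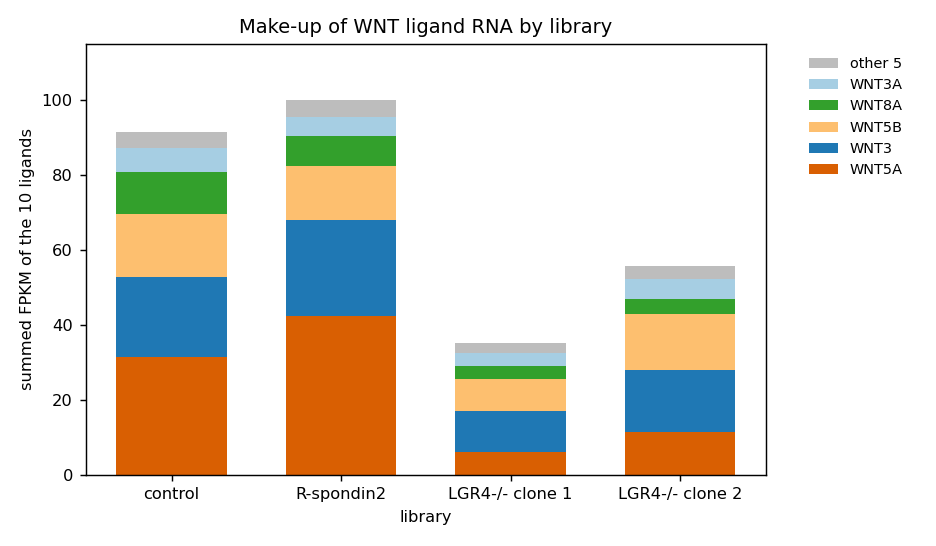
Summed FPKM of the 10 WNT ligands in each library, stacked by gene, with the 5 lowest ligands joined as "other 5". The bars reach 91.6 in control, 100.1 with R-spondin2, 35.1 in clone 1 and 55.6 in clone 2, and the WNT5A part goes from 31.5 FPKM in control to 6.12 and 11.3 in the clones.

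The question put by the first comparison was whether R-spondin2 given on the first day changed the ligands. With 1 library on each side there was no test between conditions, and 0 members differed at least 2-fold on the log2(FPKM + 1) scale, where 0.221% of all genes tested did (28 genes). WNT5A was higher with R-spondin2 by 0.42 and WNT3 by 0.26, while WNT8A was lower (-0.45), as were WNT3A (-0.31) and WNT5B (-0.22). WNT10B differed most among the members, at -0.79. The median difference was 0.06 over all 10 members and -0.22 over the 7 tested, against -0.01 over all genes tested, so its sign depended on the low ligands. With R-spondin2, 6 of the 10 members and 3 of the 7 tested were higher, where 47.8% of all genes tested were higher by any amount.

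Read numbers were derived from each FPKM, with transcript length and depth, to show what counting error alone allows. For ligands with more than 1 transcript (WNT2B, WNT5A, WNT5B, WNT8A) the shortest length was used. WNT3 stood for 635 reads in control and 745 with R-spondin2, a log2 ratio of 0.27 (95% exact interval 0.12 to 0.43). WNT5A stood for 366 and 479 reads on its shortest transcript, a log2 ratio of 0.43 (0.23 to 0.63). For WNT8A the counts were 119 and 82 and the log2 ratio was -0.50 (-0.92 to -0.08). WNT10B rested on 27 reads in control and 7 with R-spondin2, a log2 ratio of -1.91 (-3.35 to -0.67), past 2-fold on this scale, which has no pseudocount. WNT11 rested on 12 and 25 reads (log2 ratio 1.10, 0.05 to 2.23) and WNT6 on 1 and 6 reads, with an interval of -0.42 to 8.15. For WNT4 the interval ran from -0.41 to 0.57, so no difference was detectable at this depth. For WNT5B it ran from -0.46 to 0.01 and only just took in 0. On its longest transcript WNT5B stood for 348 and 288 reads, for which no interval was computed, so its result is undecided. These intervals cover counting error only and hold nothing of the variation between cultures, which cannot be told apart from the treatment here.

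The second comparison asked how the ligands stood in the libraries labelled LGR4-/-. WNT5A and WNT8A were at least 2-fold lower than control in both clones on the log2(FPKM + 1) scale, which 1.08% of all genes tested were (137 genes), and no member was at least 2-fold higher (0.236% of all genes). WNT5A was at 19.4% of the control FPKM in clone 1 and 35.9% in clone 2, with log2 differences of -2.19 and -1.40. WNT8A was at 30.9% and 36.1% (-1.45 and -1.27). WNT4 passed 2-fold in clone 1 only (-1.03, against -0.61 in clone 2), so that 3 members were this much lower in clone 1 (2.26% of all genes) and 2 in clone 2 (1.17%). Without the pseudocount WNT4 was past 2-fold in both clones, at 24.5% and 49.0% of the control FPKM, and the counting interval in clone 2 ran from -1.67 to -0.43 on the log2 scale (34 against 71 implied reads). Both clones lay below control for 7 of the 10 members and 6 of the 7 tested (35.5% of all genes), all tested but WNT10B, and below both wild-type libraries for WNT3, WNT4, WNT5A and WNT8A (27.6% of all genes). WNT11, too low to be tested, also lay below both wild-type libraries in both clones, and WNT2B lay above them (34.4% of all genes tested did). WNT11 rested on 12 implied reads in control and on 5 and 6 in clones 1 and 2. WNT2B, on its shortest transcript, rested on 5, 8 and 10. At these counts the intervals of both clones against control took in 0 for both genes. On its longest transcript WNT2B rested on 17 reads in control and on 30 and 37 in clones 1 and 2. No interval was computed at that length, so for WNT2B the result depends on the length used.

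**Figure D3:**
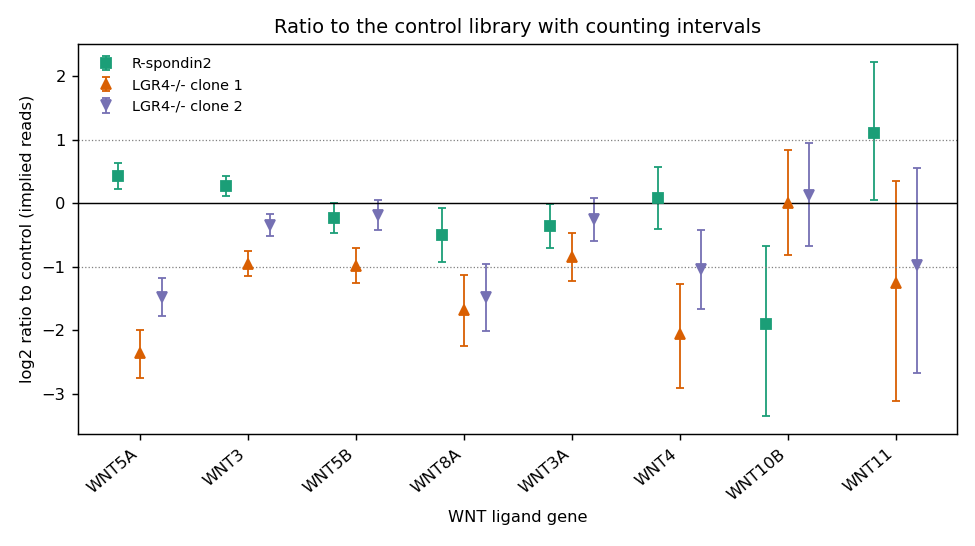
Log2 ratio of implied reads to the control library for R-spondin2, LGR4-/- clone 1 and clone 2, with exact 95% intervals for counting error and dotted lines at 2-fold. WNT2B and WNT6, with 5 and 1 implied reads in control, are left out. Clone 1 and clone 2 lie below 0 with their whole intervals for WNT5A, WNT3, WNT8A and WNT4.

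With the wild-type libraries as one group (control and R-spondin2) and the clones as the other, limma called 4 of the 7 members lower in the clones and 0 higher, where 6.67% of the 12697 genes were called lower and 7.99% higher at a Benjamini-Hochberg adjusted p under 0.05. WNT5A fell by 2.01 on the log2(FPKM + 1) scale (SE 0.26, limma adjusted p = 0.00952). WNT8A fell by 1.14 (SE 0.17, limma adjusted p = 0.0122), WNT4 by 0.84 (SE 0.19, adjusted p = 0.0309) and WNT3 by 0.74 (SE 0.19, adjusted p = 0.0473). WNT5B (-0.43, limma adjusted p = 0.252), WNT3A (-0.31, adjusted p = 0.335) and WNT10B (0.44, adjusted p = 0.315) were not called. These calls use the R-spondin2 library as a second wild-type library. The calls did not hold with R-spondin2 left out or fitted as a group of its own, where the clones stand against the 1 control library. In these fits 1 residual degree of freedom remains, as in every fit with 1 library left out. The differences were then -1.80 for WNT5A, -1.36 for WNT8A, -0.82 for WNT4 and -0.61 for WNT3. WNT4 passed the filter on low values only through the wild-type libraries, where it was high (mean over the clones 0.765 FPKM), so its call rests in part on that filter. With no filter its limma adjusted p was 0.145, which is not particular to WNT4, as 0 of 17894 genes were called in that fit. WNT5A and WNT8A were each at an adjusted p of 0.136 there, and WNT3 at 0.226. An exact permutation test of 2 against 2 libraries cannot give a two-sided p below 0.333.

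Clone 2 was higher than clone 1 for 9 of the 10 members, with WNT6 equal in both, where 49.2% of all genes tested were higher. The difference in the 7 tested was 0.79 for WNT5A, 0.74 for WNT5B, 0.57 for WNT3, 0.48 for WNT3A, 0.42 for WNT4, 0.18 for WNT8A and 0.10 for WNT10B. None reached 2-fold, which 0.252% of all genes did in either direction, and there was no test, with 1 library a clone. The median difference was 0.30 over all 10 members and 0.48 over the 7 tested, against 0.00 over all genes tested. Counting error alone did not cover this for WNT5A (71 against 129 implied reads, log2 ratio 0.88, 0.46 to 1.32) or WNT5B (166 against 285 reads, 0.80, 0.52 to 1.09), whereas for WNT8A the interval was -0.47 to 0.88. LGR4 itself stood in the same order, at 7.40 FPKM in clone 1 and 13.9 in clone 2. WNT3A and WNT5B were below control by 0.70 and 0.91 in clone 1 and by only 0.22 and 0.17 in clone 2, where their counting intervals took in 0.

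The promoter windows of WNT5A and WNT8A, the ligands past 2-fold in both clones, are shown as the 250 bases before each RefSeq transcription start (GRCh38.p14, gene strand, 5′ to 3′), with CpG dinucleotides in capitals.
WNT5A, chr3:55487307-55487556, minus strand: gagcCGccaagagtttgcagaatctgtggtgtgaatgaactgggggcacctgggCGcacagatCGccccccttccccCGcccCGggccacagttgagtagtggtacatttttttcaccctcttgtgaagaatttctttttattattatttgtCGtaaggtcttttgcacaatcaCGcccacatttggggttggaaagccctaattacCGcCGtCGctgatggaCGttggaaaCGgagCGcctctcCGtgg
WNT5A, chr3:55481399-55481648, minus strand: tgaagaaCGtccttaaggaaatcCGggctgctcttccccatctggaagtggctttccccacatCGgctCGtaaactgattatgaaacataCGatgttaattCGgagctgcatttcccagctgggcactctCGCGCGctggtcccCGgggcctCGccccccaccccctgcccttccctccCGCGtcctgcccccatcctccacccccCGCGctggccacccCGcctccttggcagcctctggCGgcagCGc
WNT8A, chr5:138083783-138084032, plus strand: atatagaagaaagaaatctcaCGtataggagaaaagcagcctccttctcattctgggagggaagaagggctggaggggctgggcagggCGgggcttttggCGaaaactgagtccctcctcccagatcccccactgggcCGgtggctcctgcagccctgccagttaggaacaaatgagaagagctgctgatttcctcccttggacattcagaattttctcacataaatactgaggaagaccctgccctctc

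Of the 10 members, 8 had an entry, with 11 windows in all. The WNT8A window held 4 CpG dinucleotides and the WNT5A windows 14 and 18, against a median of 11 over all 35116 windows, and 29.3% of all windows held fewer than that of WNT8A. WNT3A and WNT4 had the windows richest in G and C among the members, at 86.0% and 86.8%. Each window was searched on both strands for a TCF/LEF motif (CTTTGAT), a T-box motif (GGTGTGA) and an octamer motif (ATTTGCAT). The T-box letters occurred in 1 member window, the first WNT5A window above, at 223 to 217 bases before the start, and in 2.76% of all windows. The TCF/LEF and octamer letters were in 0 of the 11 windows and in 2.26% and 1.63% of all windows, which says only that these letters are not in these stretches.

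The genes whose profile over the 4 libraries lay closest to each of the 5 higher ligands, by root mean square distance of centred log2(FPKM + 1), differed from ligand to ligand. For WNT5A they were GATA4, a factor of endoderm and cardiac mesoderm, at a distance of 0.02, COL5A2, a type V collagen chain (0.04), and RHOBTB3 (0.05). GATA4 was at 40.5 FPKM in control, 53.2 with R-spondin2, 8.05 in clone 1 and 15.1 in clone 2. For WNT8A the nearest was CDX2, a caudal-type factor of posterior tissues (0.09), at 8.80, 5.89, 2.87 and 3.53 FPKM, followed by the cadherin CDH22 and the NODAL co-receptor gene CFC1B. For WNT3 they were ANXA1, an annexin (0.02), AADAT and the small heat-shock protein gene HSPB8. WNT3A and WNT5B shared TNFRSF10C, a TRAIL decoy receptor, among their 3 nearest and lay 0.12 from each other, while the member closest to WNT5A, WNT8A, was 0.58 away. The 4 libraries are few points for such a ranking, and it is a description only.

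Among the 9 other human ligand genes, 7 were at most 0.92 FPKM in every library, and WNT1 was listed at 0 in all. WNT9B, a ligand of the kidney ducts, was at 3.71 FPKM in control, 4.76 with R-spondin2, 2.53 in clone 1 and 2.82 in clone 2 (limma -0.50, adjusted p = 0.0684). WNT9A, known from joints, was at 0.82, 1.12, 1.73 and 2.03 FPKM (limma 0.55, adjusted p = 0.0705). Both clones lay above both wild-type libraries, as for 34.4% of all genes tested. WNT9A passed the filter on low values only through the clones, where it was high (mean over the wild-type libraries 0.97 FPKM).

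The further WNT pathway genes were 99 genes in lists written by role, of which 87 were tested. In both clones, 7 were at least 2-fold lower than control and 0 at least 2-fold higher (1.08% and 0.236% of all genes). By limma, 25 were called lower and 10 higher in the clones, LGR4 itself among the 25, where 6.67% and 7.99% of all genes were called, and the median difference of the clones' mean from control was -0.12, against 0.02 over all genes, -0.61 over the 7 ligands tested and -0.50 over all 10. With R-spondin2, 1 pathway gene was at least 2-fold lower and 0 higher (0.173% and 0.0473% of all genes). It was GPC3, a glypican that binds WNTs and Frizzleds, at 18.7 FPKM in control and 8.11 with R-spondin2.

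Of the 7 genes of WNT secretion and inactivation, 2 fell in the clones by limma and 3 rose. WLS, which carries every lipid-modified WNT to the cell surface, was at 68.7 FPKM in control, 73.8 with R-spondin2, 21.7 in clone 1 and 36.3 in clone 2, and fell by 1.31 (limma adjusted p = 0.0138). Its libraries stood in the same order as those of WNT5A. NOTUM, which removes the lipid from WNTs, was at 4.69, 4.92, 1.76 and 2.48 FPKM, and GPC3 at 42.5 and 31.6 FPKM in the clones.

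Of the 16 receptors and co-receptors, 5 fell and 2 rose. ROR2, a receptor of WNT5A, was at 49.2 FPKM in control, 58.9 with R-spondin2, 19.9 in clone 1 and 23.7 in clone 2, past 2-fold in both clones (limma -1.27, adjusted p = 0.00731). Its paralog ROR1 was at 16.1 and 11.1 FPKM in the clones, 9.51 in control and 6.58 with R-spondin2, and was not called (limma 0.69, adjusted p = 0.0765). Among the Frizzled receptors, FZD7 was at 109 and 132 FPKM in the wild-type libraries and 65.2 and 69.4 in the clones, whereas FZD5 was at 6.0 and 5.51 against 13.6 and 11.4.

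In the R-spondin module, 3 of the 6 genes tested were called lower and 0 higher, but 1 of the 3 was LGR4, the targeted gene, and the others were LGR5 and RSPO3. LGR5, a further R-spondin receptor, was at 36.7 FPKM in control, 46.3 with R-spondin2, 4.85 in clone 1 and 9.78 in clone 2, a fall of 2.41 (limma adjusted p = 0.00868). RSPO3, a ligand of these receptors, was at 4.27, 5.93, 0.77 and 1.69 FPKM (limma -1.47, adjusted p = 0.0141). RSPO4 and ZNRF3 were higher than control in both clones but not called. RSPO4 was at 3.42, 3.10, 5.71 and 3.93 FPKM (limma 0.43, adjusted p = 0.144). ZNRF3 was at 7.61, 7.28, 8.12 and 7.80 FPKM (limma 0.09, adjusted p = 0.607).

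The secreted antagonists moved in both directions, with 3 of the 7 tested lower and 2 higher. DKK1, which blocks LRP5 and LRP6, was at 139 and 173 FPKM in the wild-type libraries and 39.4 and 62.0 in the clones. CER1, placed in this list but best known for binding NODAL and BMPs, was at 2395 and 3467 against 599 and 1034. SFRP1 and SFRP2, which bind WNTs directly, were higher in the clones. SFRP1 was at 28.8 FPKM in control, 18.1 with R-spondin2, 82.2 in clone 1 and 48.9 in clone 2 (limma 1.43, adjusted p = 0.0213).

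Of the 16 β-catenin target genes, 6 fell, 0 rose and the others were not called. NKD1, a feedback inhibitor, was at 19.3, 22.2, 5.22 and 8.70 FPKM, and MSGN1, a factor of presomitic mesoderm, at 6.64, 7.23, 1.41 and 2.86 FPKM. CDX2 and BAMBI, named after their values were seen because they complete the 7 pathway genes, were also past 2-fold in both clones, BAMBI at 76.3 FPKM in control and 26.3 and 35.6 in the clones. Among those not called, AXIN2, a feedback inhibitor widely used as a readout of the pathway, was at 20.2, 19.3, 17.6 and 20.8 FPKM (limma -0.04, adjusted p = 0.822). NKD2, the gene of this list that rose most against control, was at 1.78, 1.70, 2.43 and 3.62 FPKM (limma 0.54, adjusted p = 0.0920). MYC, a growth regulator, was at 33.8, 35.2, 36.4 and 40.2 FPKM (limma adjusted p = 0.256). AXIN2 was named after its value was seen. In the β-catenin route itself 3 of 17 genes fell and 2 rose, with LEF1, a transcription factor of the route, at 8.95, 10.3, 2.60 and 5.86 FPKM, and TCF7L1, mostly a repressor, at 28.2, 18.7, 51.1 and 38.4 FPKM. PYGO1, among the 3, was at 0.55 and 0.82 FPKM in the clones and passed the filter on low values only through the wild-type libraries. Of the 18 polarity and calcium genes tested 3 fell and 1 rose, and 0 passed 2-fold in both clones. DAAM1, a formin of the polarity route, fell and was at 13.8, 15.8, 6.98 and 8.49 FPKM. CELSR2, which rose, was at 4.08, 2.98, 8.93 and 7.06 FPKM (limma 0.99, adjusted p = 0.0155).

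**Figure D4:**
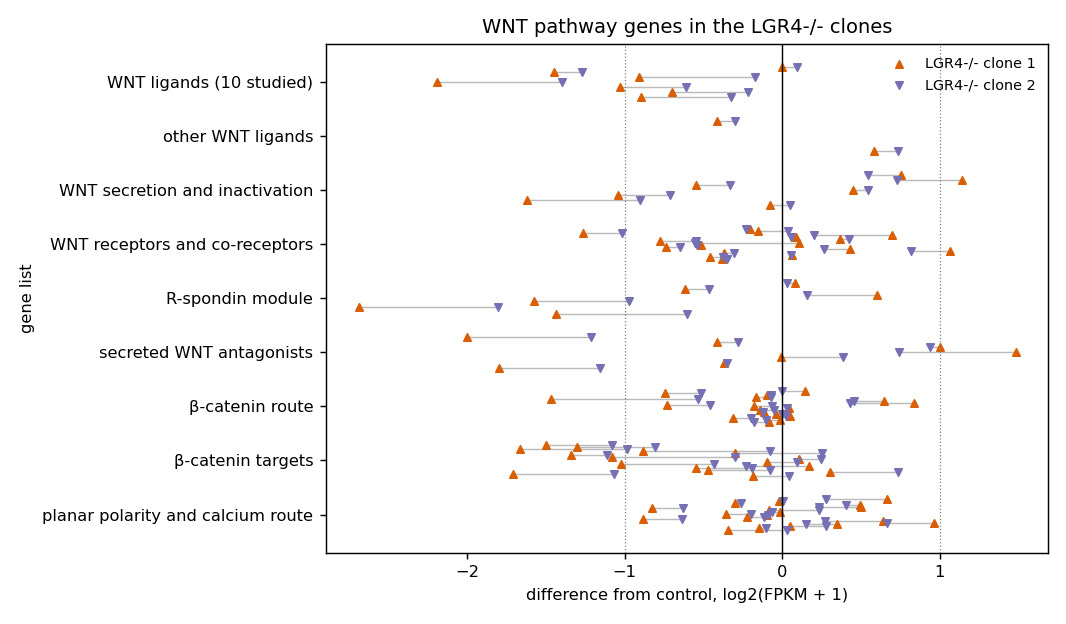
Difference of each LGR4-/- clone from control in log2(FPKM + 1) for the tested genes of each WNT list, 1 grey line per gene joining clone 1 and clone 2, with dotted lines at 2-fold. Of the 7 WNT ligands at the top, 6 lie left of 0 in both clones, and in most of the other lists genes lie on both sides.

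Several lists of cell state markers also differed between the clones and the wild-type libraries. With R-spondin2 the direction was not shared by every ligand. All 10 primitive streak and mesoderm markers were then higher than in control (47.8% of all genes tested), while WNT3A, WNT5B, WNT8A and WNT10B were lower. In both clones all 10 were lower than in both wild-type libraries, which 27.6% of all genes tested were. Their summed level was 1129 and 1489 FPKM in the wild-type libraries and 391 and 610 in the clones. Limma called 9 lower, against 6.67% of all genes. The marker not called was T, at 70.3, 77.8, 37.6 and 66.5 FPKM (limma -0.55, adjusted p = 0.168). HAND1, a factor of lateral mesoderm, was at 70.0, 99.8, 8.59 and 19.8 FPKM, and MESP1, a factor of early mesoderm, at 38.5, 57.3, 5.64 and 13.4 FPKM. The 8 pluripotent cell markers summed to 1389 and 1145 FPKM in the wild-type libraries and 2210 and 2068 in the clones. All 8 lay above both wild-type libraries in both clones (34.4% of all genes tested), and 7 were called higher (7.99% of all genes). SOX2, a factor of pluripotent and neural cells, was at 19.9 FPKM in control, 5.58 with R-spondin2, 66.0 in clone 1 and 50.7 in clone 2. The 6 definitive endoderm markers summed to 246 and 307 FPKM in the wild-type libraries and 87.7 and 120 in the clones, with 5 called lower and FOXA2, an endoderm factor, called higher. Stromal fibroblast markers summed to 216 to 297 FPKM, but of the 6 tested 3 were called lower and 1 higher. LUM, a matrix proteoglycan of this list, was at 5.49, 9.11, 0.16 and 1.45 FPKM (limma -2.26, adjusted p = 0.0146). Like WNT4, LUM passed the filter on low values only through the wild-type libraries, so its call rests in part on that filter. The same holds for FOXF1 of the mesoderm list, at 0.60 and 1.23 FPKM in the clones. Endothelial and blood markers summed to 40.5 to 45.5 FPKM with 0 called lower and 1 higher, and only 1 of the 6 neuroectoderm markers, OTX2, passed the filter on low values. The part of these shifts in the differences of the WNT ligands was not tested.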

How the data were processed

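H1 hESCs sorted at day 2 were sequenced by the authors (TruSeq libraries), and the deposited values are FPKM per gene with 2 decimals. Per the labels, BWA, Bowtie, RSEM and hg19 were used, in roles not given in the sources used here. The sources used here do not describe how the clones were made. The members and gene lists were chosen with earlier results of these data known.

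The 12697 of 17894 genes whose mean reached 1 FPKM were tested on log2(FPKM + 1) with limma 3.58.1 (R 4.3.3, trended variance, Benjamini-Hochberg), checked on simulated data, comparing the LGR4-/- clones with the wild-type libraries. Fold thresholds (2-fold) stand in for a test between single libraries. Depth was estimated from FPKM under 0.6 in short single-transcript genes, where 76.6 to 77.9% of values lay within 0.2 of a whole read; ratio intervals are Clopper-Pearson at 95%. Named genes were LGR4, all members, other ligands of at least 1 FPKM, for each pathway list up to 4 genes that fell or rose most in the clones, and the 3 nearest profiles. Promoters came from RefSeq (GRCh38.p14) and no hg19 coordinate is given. The alternatives are in the closing section.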

Additional observations from a re-analysis of the deposited data

How the results depend on the processing

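By the 2-fold rule against control, WNT5A and WNT8A stayed called lower under every alternative tried, but most alternatives could not have undone this. A clone left out, a 1.5-fold cut and a smaller pseudocount can only keep such a call. Both filters keep genes at means of 22.9 and 6.63 FPKM. Only rescaling each library by its median ratio (0.989 to 1.02) could have changed it. With a pseudocount of 0.1, 1 member (WNT10B) in place of 0 and 3 pathway genes (GPC3, FZD10, CDX4) in place of 1 passed 2-fold with R-spondin2. At 1.5-fold these counts were 1 (WNT10B) and 6, 2 members (WNT5A, WNT5B) differed between the clones, and 22 pathway genes in place of 7 were changed in both clones, 16 lower and 6 higher. With one clone left out the pathway count was 7 to 20, the higher value without clone 2.

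The limma calls were less stable. Of the 4 members called, 0 remained called with no filter on low values, where 0 of 17894 genes were called and 4336 had an unadjusted p under 0.05, and 0 with R-spondin2 as a group of its own. Leaving out 1 library gave 0 to 5 members: 0 without R-spondin2, 2 (WNT5A, WNT8A) without the control or without clone 1, and 5 without clone 2, when WNT5B joined. WNT3 was also lost with a pseudocount of 0.1 (adjusted p = 0.0517) and without a variance trend (adjusted p = 0.0939). The adjusted p of WNT5A ran from 0.00182 to 0.136 and that of WNT8A from 0.0123 to 0.136, and neither changed direction. No paired analysis was possible because the groups share fewer than 2 replicate numbers. Genes resting on few reads (WNT2B, WNT6, WNT11) are limited by depth.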
